A study of Mus musculus with 6 samples.

Results

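The genes described here are Lin28a, Lin28b and a set of genes known for their link to the microRNA let-7: Hmga1, Hmga2, Igf2bp1, Igf2bp2, Igf2bp3, Trim71 and Arid3a. Members were all probe sets whose only gene symbol in the platform annotation was 1 of these 9 names. The rule found 20 of the 34945 probe sets with 1 symbol, for 7 of 18193 genes. No probe set carried Hmga1 or Igf2bp2 alone in the annotation used, and these genes are not analysed here. The matching used names, but the names themselves were chosen by the signal differences between knockdown and control arrays already seen in these data. The differences below are therefore a description, and the calls of the fit over all genes are not independent evidence about these genes.

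RNA came from J1 mouse embryonic stem cells, a single line grown on gelatin in medium with leukemia inhibitory factor (1000 U/ml) and 15% serum. Each group carried a pLKO.1 lentiviral short hairpin: shJmjd1c#4 (called sh4), shJmjd1c#3 (sh3) or the non-targeting shNT. Infected cells were selected with puromycin at 1.5 ug/ml for 2 days and grown for 4 days after replating. There were 2 Affymetrix arrays a group, labelled as biological replicates, and this small number limits the precision. The design text calls the duplicates independent, and gives no more on how they were prepared.

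Lin28 proteins bind let-7 precursors and block their maturation, and terminal uridylyl transferases then mark the bound precursors for decay. Mature let-7 in turn represses messages that carry sites for its seed, among them Lin28a and Lin28b themselves, Hmga2, the Igf2bp genes and Trim71. Lin28a is abundant and mature let-7 scarce in embryonic stem cells, and the balance turns as cells differentiate. The array measured messages, not mature microRNAs.

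The let-7 family is shown because its shared seed is what links these targets. Of 1674 mature mouse microRNA sequences from RefSeq (GRCm38.p6), at least 11 had the seed GAGGUAG at bases 2 to 8. Loci on a single chromosome were left out before counting, so the count of 11 may not cover every locus and is a lower bound. Of these 11, 5 are printed 5′ to 3′ with the seed in capitals:
let-7a-5p: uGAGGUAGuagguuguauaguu
let-7d-5p: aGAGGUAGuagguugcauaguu
let-7e-5p: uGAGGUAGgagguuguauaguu
let-7i-5p: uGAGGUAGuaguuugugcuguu
miR-98-5p: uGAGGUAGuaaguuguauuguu
They are encoded at chr13:48538239-48538260 on the minus strand (Mirlet7a-1), chr13:48536078-48536099 on the minus strand (Mirlet7d), chr17:17830366-17830387 on the plus strand (Mirlet7e), chr10:122985698-122985719 on the minus strand (Mirlet7i) and chrX:151913229-151913250 on the plus strand (Mir98). Compared with let-7a, let-7e differed at 1 base, let-7d and miR-98 at 2 and let-7i at 4, none of them in the seed.

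Median signals ranged from 69.2 to 81.0 over the 6 arrays. The most abundant Jmjd1c probe set, 1426900_at, read 3274 and 4215 in sh4, 4541 and 4984 in sh3, and 6060 and 5516 in shNT, a log2 difference of -0.46 for the mean of both hairpins (adjusted p = 0.358 by limma over all probe sets). Jmjd1c probe sets 1448049_at and 1439998_at were higher in all 4 knockdown arrays than in both controls (log2 0.90 and 0.73, adjusted p = 0.117 and 0.439 by limma). When same-numbered arrays were blocked, 1448049_at passed as higher (adjusted p = 0.0127 by limma). With that block 1439998_at (0.197) and the lower 1426900_at (0.0745) did not pass. The probe sets thus disagreed in direction, and the groups are called knockdown by their labels. Signal at the control for 18S ribosomal RNA was 3712 and 5013 in sh4, 6177 and 5333 in sh3, and 8140 and 6875 in shNT, lower in each knockdown array than in both controls.

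Hmga2 was the member that rose. It encodes an architectural chromatin protein with AT-hooks that bind the minor groove of AT-rich DNA, and its message is a classical let-7 target. Its most abundant probe set, 1450780_s_at, read 1510 and 1642 in sh4, 839 and 821 in sh3, and 454 and 481 in shNT. Both sh4 arrays lay above both sh3 arrays, and these above both controls, with no overlap. The means were 1576 ± 93.1 in sh4, 830.1 ± 13.2 in sh3 and 467 ± 19.0 in shNT (SD, n = 2 each).

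In the mean of both hairpins against shNT, called the knockdown mean, Hmga2 rose by 1.26 on the log2(signal + 16) scale (SE 0.12, 95% interval 0.99 to 1.54, adjusted p = 0.0109 by limma over 12684 genes). It ranked 61 of 12684 by size and 3 by p. With sh4 alone it rose by 1.72 (SE 0.14, 1.40 to 2.04, adjusted p = 0.00413 by limma), ranking 25 by size and 2 by p. With sh3 alone the difference was 0.81 (SE 0.14, 0.49 to 1.13, adjusted p = 0.0805 by limma), which missed the threshold of 0.05, and it passed once same-numbered arrays were blocked (the replicate block, adjusted p = 0.00555). Both hairpins were set against the same 2 control arrays. In bulk RNA, more cells with Hmga2 and more Hmga2 per cell cannot be told apart.

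The hairpins themselves differed at Hmga2 by 0.91, sh4 minus sh3 (SE 0.14, 0.59 to 1.23). At adjusted p = 0.352 by limma this missed the threshold, and it passed with the replicate block (adjusted p = 0.0168). Within each replicate number the values were 0.84 and 0.99, so the order of the hairpins was the same in both. No gene of 12684 passed in that contrast (percent called 0.00) by limma without the block, while 774 had an unadjusted p under 0.05, and 53 passed with the block (percent called 0.418).

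The call in the knockdown mean was lost without shNT replicate 2 (log2 1.30, adjusted p = 0.0600 by limma), with the mean of the gene's probe sets (0.98, 0.0542), without probe sets that may cross-hybridize (1.16, 0.122) and without the intensity trend (0.0857). Over genes, the sh4 call held in each of the 16 alternatives run, with log2 1.40 to 1.91 and adjusted p between 7.44e-05 and 0.0475 by limma. In the fit over all probe sets the sh4 call of 1450780_s_at (adjusted p = 0.0146, 1 of 20 member probe sets against a percent called of 0.0155) was lost without the intensity trend (0.320) and when any 1 of the 6 arrays was left out (log2 1.66 to 1.78, adjusted p of 0.0755 to 0.238).

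**Figure D1:**
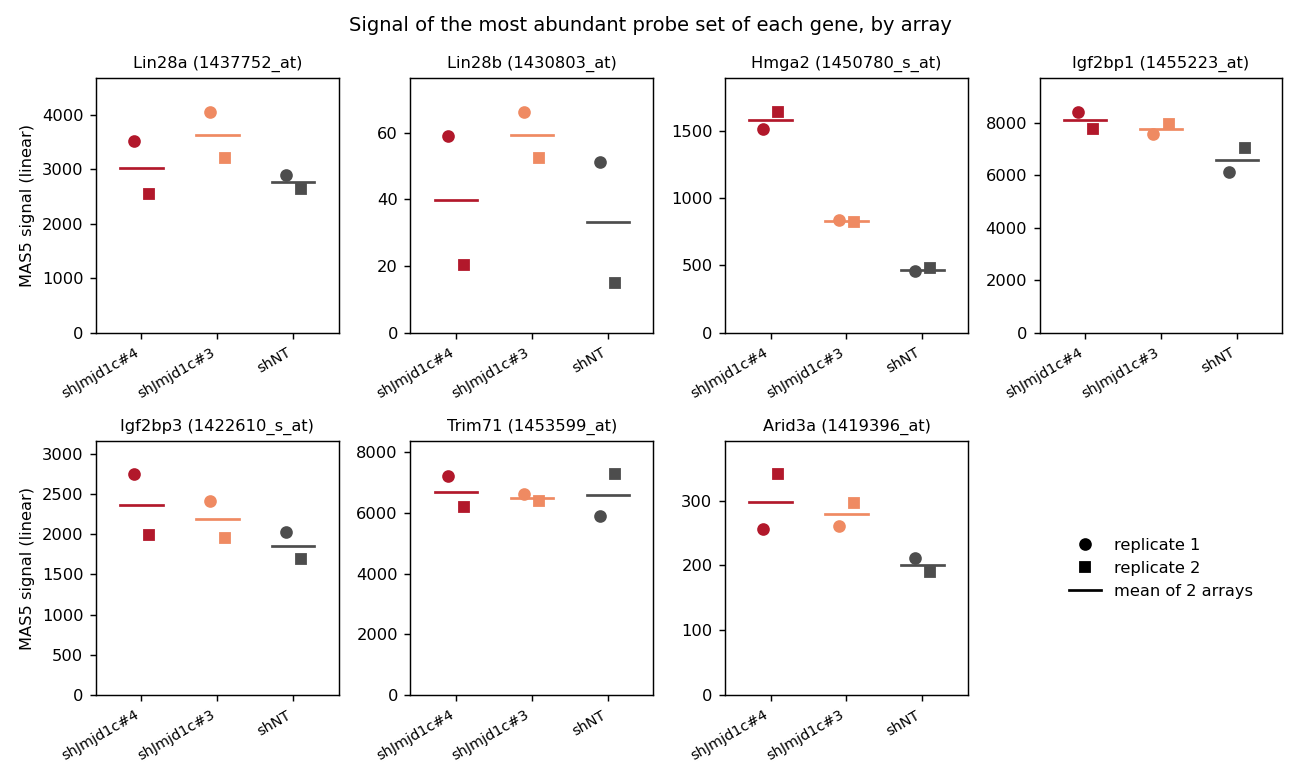
MAS5 signal on a linear scale (y axis, from 0) of the most abundant probe set of each of the 7 genes, in shJmjd1c#4, shJmjd1c#3 and shNT arrays. Circles and squares are replicates 1 and 2 and lines are the means of 2 arrays. Only the Hmga2 panel has all 3 groups apart, with sh4 at 1510 and 1642, sh3 at 839 and 821, and shNT at 454 and 481.

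The other Hmga2 probe sets were compared to see whether they gave the same picture. Probe set 1422851_at read 1357 and 1747 in sh4, 361 and 769 in sh3, and 364 and 432 in shNT. The sh4 arrays stood apart here too, while sh3 replicate 1 was at the level of the controls and sh3 replicate 2 above them. Its difference was 1.91 in sh4 and 0.40 in sh3 (SE 0.31 each), and without sh3 replicate 2 the sh3 value was -0.13.

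Probe set 1450781_at read 422 and 496 in sh4, 196 and 263 in sh3, and 151 and 146 in shNT. Again the 3 groups did not overlap, and the differences were 1.52 in sh4 and 0.56 in sh3 (SE 0.23 each). The remaining probe set, 1446196_at, read 49.0 and 46.1 in sh4, 53.7 and 41.5 in sh3, and 22.5 and 40.04 in shNT. It lay near the filter signal of 40.1, and it did not separate the hairpins (sh4 minus sh3 0.00, SE 0.42).

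In the fit over all 45037 probe sets, 1450780_s_at was the single member probe set of 20 that passed in the knockdown mean (adjusted p = 0.0380 by limma), against a percent called of 0.0422. It no longer passed when any 1 array was left out (log2 1.22 to 1.30, adjusted p of 0.137 to 0.328). With the replicate block 4 of 20 passed: 3 of Hmga2 (adjusted p = 0.00151, 0.0119 and 0.0263 by limma) and 1459825_x_at of Igf2bp1 (0.00887), against a percent called of 1.03.

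**Figure D2:**
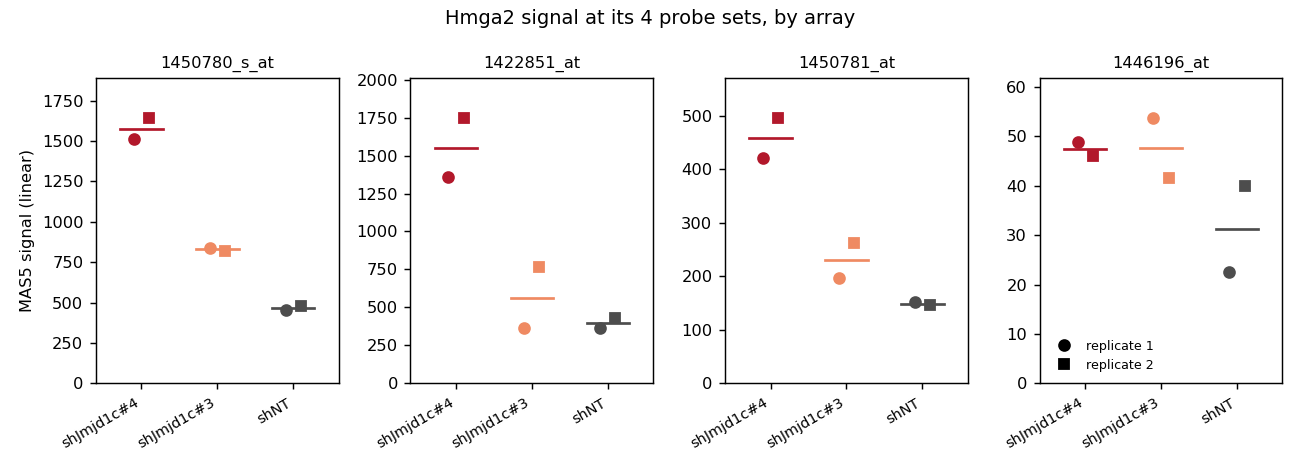
MAS5 signal on a linear scale (y axis, from 0) at the 4 Hmga2 probe sets in shJmjd1c#4, shJmjd1c#3 and shNT arrays. Circles and squares are replicates 1 and 2 and lines are means. At 3 probe sets both sh4 arrays exceed all others, while at 1446196_at, which lies between 22.5 and 53.7, the hairpins overlap.

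The Lin28 genes, which stand upstream of let-7, did not pass in any contrast. Lin28a encodes the main Lin28 protein of embryonic stem cells, with a cold-shock domain and zinc knuckles that contact let-7 precursors. Its most abundant probe set, 1437752_at, read 3507 and 2541 in sh4, 4054 and 3195 in sh3, and 2885 and 2642 in shNT. The sh3 arrays lay above both controls, and the sh4 arrays on either side of them. The knockdown mean differed by 0.25 (SE 0.15, -0.10 to 0.59, adjusted p = 0.571 by limma). The other Lin28a probe set, 1421749_at, read 513 and 627 in sh4, 501 and 450.3 in sh3, and 465 and 528 in shNT, a difference of 0.06 (SE 0.15). The order of the hairpins was opposite at the 2 probe sets, with sh4 minus sh3 at -0.27 and 0.25.

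Lin28b, the paralogue that acts in part in the nucleus, had 1 probe set, 1430803_at. It read 59.2 and 20.4 in sh4, 66.4 and 52.4 in sh3, and 51.3 and 14.9 in shNT. Both sh3 arrays lay above both controls, though barely (52.4 against 51.3), and the sh4 arrays overlapped each of the other groups. Replicate 1 was above replicate 2 in all 3 groups. At this signal the interval was wide (knockdown mean 0.46, SE 0.44, -0.54 to 1.46, adjusted p = 0.749 by limma). The value was 1.02 without shNT replicate 1 and -0.10 without shNT replicate 2.

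Among the targets, the Igf2bp proteins bind and stabilise messages, including that of Igf2. Igf2bp1 was read by 4 probe sets, all with a positive knockdown mean (0.16 to 0.80). The most abundant, 1455223_at, read 8436 and 7776 in sh4, 7592 and 7957 in sh3, and 6147 and 7045 in shNT. All 4 knockdown arrays exceeded both controls, by 0.27 in the knockdown mean (SE 0.10, 0.04 to 0.49), which did not pass (adjusted p = 0.312 by limma).

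Probe set 1459825_x_at of Igf2bp1 read 1771 and 1316 in sh4, 1764 and 1470.3 in sh3, and 1127 and 709 in shNT. It gave the widest difference of the 4, 0.80 (SE 0.20, 0.35 to 1.25, adjusted p = 0.316 by limma, and 0.00887 with the block). The value was 1.13 without shNT replicate 1 and 0.47 without shNT replicate 2. Its suffix marks probes that may cross-hybridize. Probe sets 1418761_at and 1449210_at had 1 knockdown array each within the range of the controls, and differed by 0.16 (SE 0.12) and 0.22 (SE 0.12).

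Igf2bp3 was read by 6 probe sets, with knockdown means from 0.05 to 0.54 and none past the threshold. The most abundant, 1422610_s_at, read 2743 and 1988 in sh4, 2413 and 1954 in sh3, and 2028 and 1688 in shNT. The groups overlapped, with replicate 2 of each knockdown group below shNT replicate 1. The difference was 0.28 (SE 0.16, -0.08 to 0.64, adjusted p = 0.526 by limma). Within replicate numbers 1 and 2 it was 0.34 and 0.22. Probe set 1453957_a_at was the exception in sh4, where it read 106 and 93.3, against 166 and 144 in sh3 and 165 and 86.0 in shNT (sh4 -0.23, sh3 0.33, SE 0.35 each).

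Trim71, the mouse Lin41, is an RNA-binding protein with a ubiquitin ligase RING domain that holds back differentiation in early embryonic cells. Its most abundant probe set, 1453599_at, read 7206 and 6176 in sh4, 6618 and 6372 in sh3, and 5899 and 7262 in shNT. Both hairpins lay between the controls, and the knockdown mean was 0.01 (SE 0.12, -0.26 to 0.27, adjusted p = 0.984 by limma). The other, 1456673_at, read 4055 and 2853 in sh4, 3101 and 2943 in sh3, and 2804 and 3656 in shNT, a difference of 0.00 (SE 0.16).

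Arid3a, a transcription factor with an AT-rich interaction domain, is tied to the Lin28b and let-7 axis in mouse fetal lymphoid cells. Its probe set, 1419396_at, read 256 and 341 in sh4, 261 and 296 in sh3, and 212 and 191 in shNT. All 4 knockdown arrays lay above both controls, and the hairpins overlapped. The difference was 0.48 (SE 0.19, 0.04 to 0.92) and missed the threshold (adjusted p = 0.366 by limma). Within replicate numbers 1 and 2 it was 0.27 and 0.69.

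**Figure D3:**
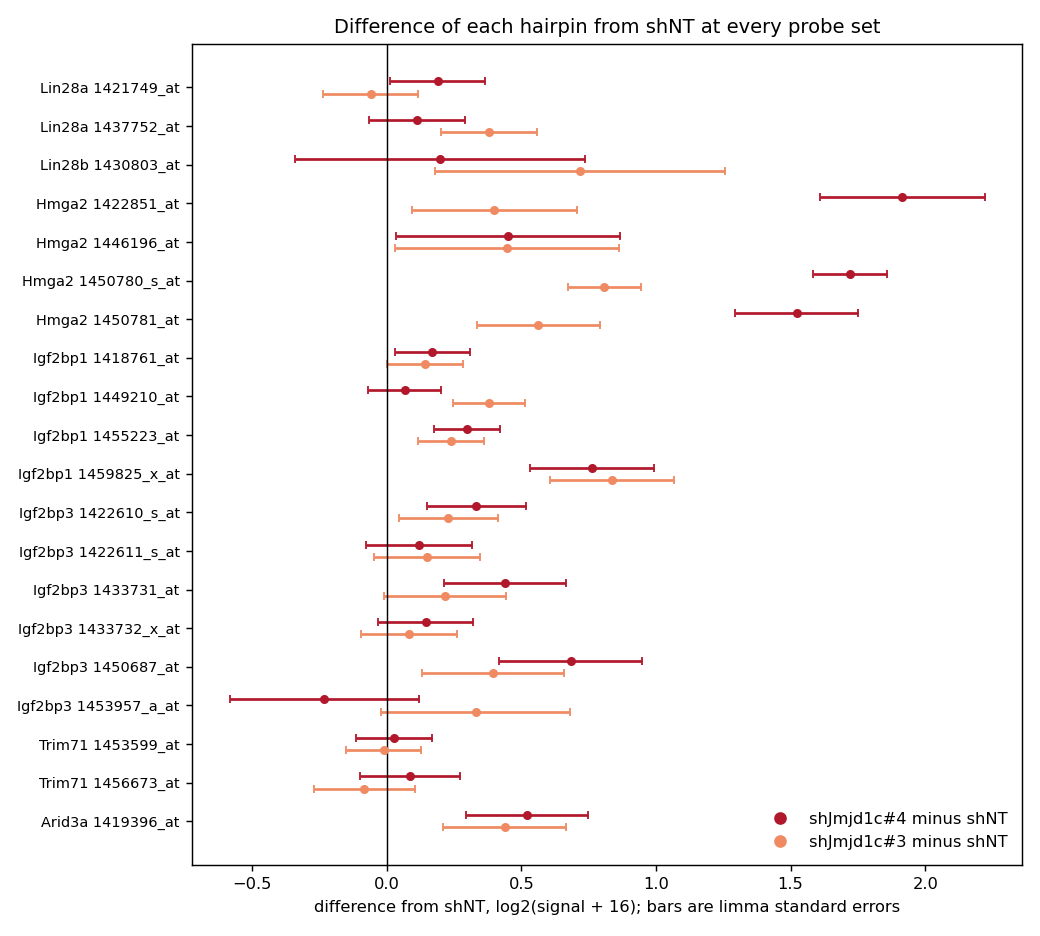
Difference from shNT on the log2(signal + 16) scale (x axis) at all 20 probe sets for shJmjd1c#4 and shJmjd1c#3. Bars are limma standard errors and the vertical line is no difference. For 3 of the Hmga2 probe sets sh4 lies at 1.52 to 1.91, and both Trim71 probe sets lie at the line.

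Of the 7 genes tested, 1 passed in the knockdown mean and 1 with sh4, Hmga2 in both, and 0 with sh3. With sh3 1 member had an unadjusted p under 0.05, against 1235 of all 12684 genes. Over all 12684 genes the percent called by limma was 0.725 in the knockdown mean, 0.363 with sh4 and 0.0710 with sh3. With the replicate block, 1 member passed in each of these contrasts, again Hmga2, against 5.60, 4.90 and 3.43. All 7 differences in the knockdown mean were positive, with a median of 0.28, where 51.7% of all genes tested were positive with a median of 0.01. All 7 genes passed the filter on dim signal, which left 12684 of 18193 genes. In 3 of the 7, Hmga2, Igf2bp1 and Arid3a, all 4 knockdown arrays exceeded both controls, as in 11.2% of all genes tested. By probe set this held for 6 of 20, against 9.66%: 3 of Hmga2, 2 of Igf2bp1 and 1 of Arid3a, so these are repeated reads of the same 3 genes. The 3 of Hmga2 include the dim 1446196_at and leave out 1422851_at, where sh3 replicate 1 was not above the controls. The sh4 arrays both exceeded the sh3 arrays at 4 of 20 probe sets, 3 of them of Hmga2 (all but 1446196_at), against 19.8%.

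The genes that process let-7 and act with Lin28 were described next, from a list of 20. All were tested, and 0 passed in either direction in any contrast by limma, with or without the block. Against 1559 of all 12684 genes tested, 1 of the 20 had an unadjusted p under 0.05 in the knockdown mean, and their median was 0.08. Those with the smallest p were Khsrp, which binds let-7 precursors and favours their processing, Drosha, the nuclear microRNA-processing nuclease, Prkra, a partner of Dicer, and Trim25, a ubiquitin ligase that promotes let-7 uridylation. Khsrp read 2339 and 2759 in sh4, 2911 and 2775 in sh3, and 3220 and 3164 in shNT (log2 -0.25, SE 0.11, adjusted p = 0.390 by limma). Drosha was at 0.24 (SE 0.13), Prkra at 0.36 (SE 0.22) and Trim25 at -0.14 (SE 0.13). The terminal uridylyl transferases Tut4 and Tut7, which tail precursors bound by Lin28, were at 0.11 and -0.14, and Dis3l2, the nuclease that degrades the tailed precursors, at 0.18.

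Other let-7 targets outside the members were described from a list of 25, of which 21 were tested. In the knockdown mean 0 passed by limma, and 7 had an unadjusted p under 0.05, against 1559 of all 12684 genes tested. With the block 5 of the 21 were higher, against 423 of 12684. The median of the 21 was 0.16, and 15 of them were positive. Ccnd2, a D-type cyclin of the G1 phase, read 1172 and 824 in sh4, 463 and 427 in sh3, and 362 and 270.2 in shNT. Like Hmga2 it had the 3 groups apart, with sh4 highest. It rose with sh4 (log2 1.60, adjusted p = 0.0250 by limma), and the knockdown mean was 1.04 (SE 0.19, adjusted p = 0.0510, and 0.00119 with the block).

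Irs2, an adaptor of insulin receptor signalling, read 505 and 454 in sh4, 488 and 747 in sh3, and 309 and 301 in shNT (log2 0.79, SE 0.19, adjusted p = 0.140 by limma, and 0.0206 with the block). Here sh3 was not below sh4. Cdk6, a kinase partner of D-type cyclins, was at 0.55 (SE 0.16), and Nr6a1, an orphan nuclear receptor, at 0.54 (SE 0.17). Both passed only with the block (adjusted p = 0.0279 and 0.0366 by limma). Mycn and Nras, also on the list, were at -0.07 and 0.03. Of host transcripts of let-7 genes, Wdr82 and Huwe1 were tested and lay at -0.11 (SE 0.17) and 0.05 (SE 0.11).

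**Figure D4:**
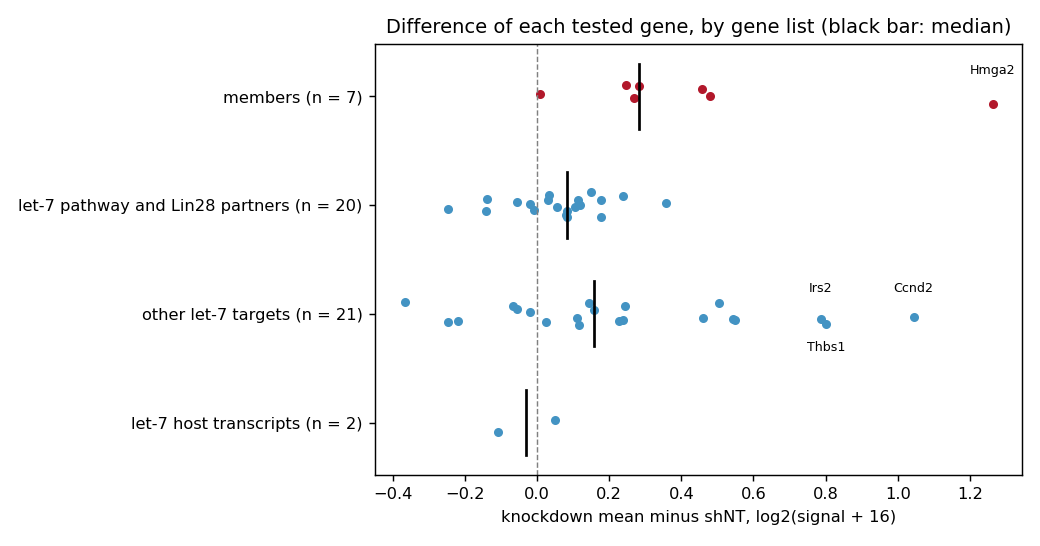
Knockdown mean minus shNT on the log2(signal + 16) scale (x axis) of each tested gene, for the 7 members, 20 let-7 pathway genes, 21 other let-7 targets and 2 let-7 host transcripts. Points are genes and black bars are medians, at 0.28, 0.08, 0.16 and -0.03. Hmga2 at 1.26 and Ccnd2 at 1.04 are the points farthest to the right.

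Hmga2 is low in naive stem cells and is known from mesenchymal and other differentiating cells, so markers of such cells were set beside it. Over all 12684 genes tested, 1559 had an unadjusted p under 0.05 in the knockdown mean. By limma 71 were called higher there, and with the block 423 were higher and 287 lower. Of 10 embryonic stem cell markers 9 were negative in the knockdown mean (median -0.30, 0 called by limma, 3 with an unadjusted p under 0.05, 5 lower with the block), and their summed signal was 99337 and 107140.0 in sh4, 94168 and 100699 in sh3, and 111101 and 132465 in shNT. Of 10 formative or primed epiblast genes 9 were positive (median 0.64, 0 called by limma, 6 with an unadjusted p under 0.05, 8 higher with the block). Their sum was 40696 and 24065 in sh4, 40215 and 26537 in sh3, and 28255 and 13572 in shNT. The groups overlapped, with replicate 1 above replicate 2 in each, and within each replicate number both hairpins were above shNT. For primitive endoderm 8 of 9 tested genes were positive (median 0.64, 2 higher by limma, Col4a1 and Sparc). Among the 9, 6 had an unadjusted p under 0.05, and 3 were higher with the block. Their sum over 12 genes was 10495 and 10281 in sh4, 8758 and 9702 in sh3, and 6478 and 6009 in shNT, and had the same order of groups as Hmga2. Sparc, Lamb1 and Col4a1 had the highest signals in this sum. Sparc was highest in sh3 instead, at 3266 and 3323 in sh4, 4052 and 4670.5 in sh3, and 2479 and 2371 in shNT. The transcription factors Gata4, Gata6, Sox7 and Sox17 were at -0.05, 0.15, 0.37 and 0.96 in the knockdown mean. With sh4 alone they were at -0.24, 0.65, 0.91 and 1.69, none called by limma in either contrast. Sox17 read 261 and 160 in sh4, 65.6 and 62.0 in sh3, and 59.2 and 45.9 in shNT. In sh4 minus sh3 the median of the 9 tested genes was 1.00, and 0 were called by limma. There 6 of them had an unadjusted p under 0.05, against 774 of all 12684 genes tested. Foxa2, Afp and Ttr fell below the filter on the mean over all arrays and were not tested. Foxa2 read 66.7 and 65.8 in sh4, 19.1 and 22.3 in sh3, and 24.1 and 9.12 in shNT.

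Feeder fibroblast markers were positive in 12 of 13 tested (median 0.56, 1 higher by limma, Col3a1). Of the 13, 7 had an unadjusted p under 0.05, against 1559 of all 12684 genes tested. With the block 2 were higher, against 423 of 12684. Their sum over 15 genes was 12888 and 13881 in sh4, 12129 and 13166 in sh3, and 12458 and 14321 in shNT, and the groups overlapped. Fn1, the abundant matrix protein fibronectin, made up most of this sum and read 7894 and 8971 in sh4, 8092 and 9192 in sh3, and 9078 and 11138 in shNT (log2 -0.24, adjusted p = 0.464 by limma). Without Fn1, a choice made after seeing the data, the other 14 genes summed to 4994 and 4910.3 in sh4, 4038 and 3974 in sh3, and 3379 and 3183 in shNT, apart and in the same order as Hmga2. Fstl1 was the largest part of this remaining sum, at 2482 and 2452 in sh4, 2063 and 1876 in sh3, and 1910 and 1685 in shNT. Pdgfra was on both this list and the primitive endoderm list. Several of these markers were dim: Lum and Postn did not pass the filter (signal 40.1) and were not tested, and Dcn in shNT lay below that signal. Dcn, a small proteoglycan of connective tissue, had the same order of groups as Hmga2, with 106 and 113 in sh4, 41.4 and 47.1 in sh3, and 10.9 and 11.7 in shNT. It rose with sh4 (log2 2.20, adjusted p = 0.0456 by limma). Col5a1 and Twist1 were at 0.56 and 0.78 in the knockdown mean and were not called by limma. Col1a1, the main fibrillar collagen chain of fibroblasts, read 53.1 and 60.6 in sh4, 61.9 and 86.7 in sh3, and 5.88 and 73.2 in shNT. Of neural genes 3 of 5 tested were positive (median 0.26), with Nes, an intermediate filament of progenitors, higher (log2 1.37). Among the 5, 2 had an unadjusted p under 0.05, and 1 was higher with the block. Sox3 and Pax6 were at 0.43 and 0.26 and were not called. Tubb3 and Sox1 were negative, at -0.54 and -0.19, and were not called either. Tubb3 read 539 and 317 in sh4, 511 and 477 in sh3, and 759 and 586 in shNT. The part of any of these cell types in the Hmga2 difference was not tested.

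The genes with the profile most like that of Hmga2 over the 6 arrays were Cd44, Meis1 and Col4a1. Likeness was the root mean square difference between profiles centred on their own means, on the log2(signal + 16) scale. RIKEN and Gm gene models were passed over. The value was 0.12, 0.17 and 0.19, where the Hmga2 profile had a root mean square of 0.70 about its mean. Cd44, a hyaluronan receptor, read 230.0 and 201 in sh4, 130 and 116 in sh3, and 51.6 and 62.1 in shNT. Meis1, a homeobox factor, read 315 and 389 in sh4, 239 and 211 in sh3, and 106 and 135 in shNT. Col4a1, a basement membrane collagen chain, read 2672 and 2050.2 in sh4, 1046 and 1277 in sh3, and 698 and 787 in shNT. In all 3, as in Hmga2, the groups ran from sh4 through sh3 to shNT without overlap; they were picked for that likeness.

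**Figure D5:**
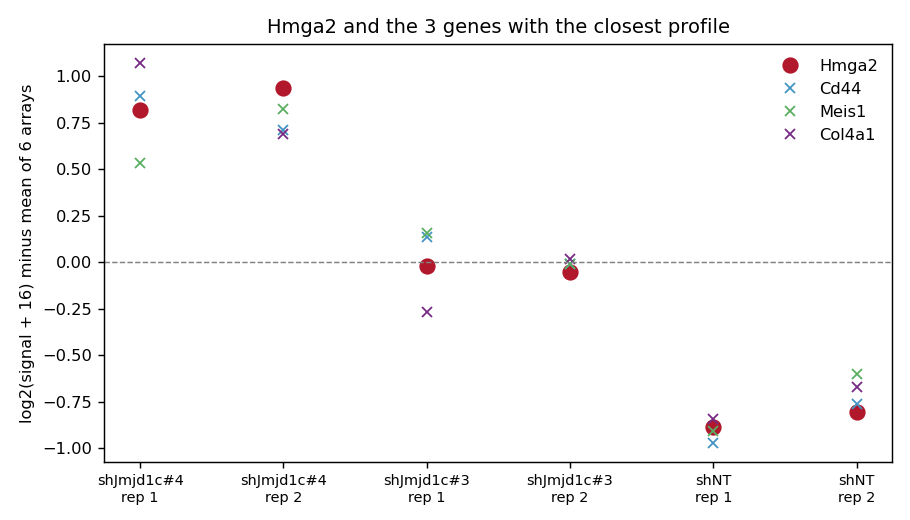
Log2(signal + 16) minus the mean of the 6 arrays (y axis) for Hmga2 (filled circles) and the 3 genes nearest to it in profile (crosses), by array (x axis). All 4 genes are highest in the sh4 arrays, intermediate in the sh3 arrays and lowest in the shNT arrays.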

How the data were processed

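Total RNA (6 ug) from each of 6 samples was hybridized to Affymetrix mouse expression arrays, per the labels' protocols. The deposited values are linear signal intensity. The submitters' processing notes name MAS5, with its version not given in the sources used here. Values were scaled per array, the mean of the middle 96% of values being 500 on each. No background correction was added. Genes were named through the platform annotation and Entrez IDs (GRCm38.p6 table).

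Signals were taken as log2(signal + 16), which understates changes of dim genes. For each gene the probe set with the highest mean was kept, and the 12684 genes at or above the 40th percentile of probe sets (signal 40.1) were tested. A linear model with a mean for each of the 3 groups was fitted to the 6 arrays together in limma 3.58.1 (R 4.3.3), with an intensity trend; tests were 2-sided with 3 residual and 5.96 prior degrees of freedom, and p-values were adjusted over all genes by Benjamini-Hochberg with a threshold of 0.05. All 45037 probe sets without controls were fitted likewise, without a filter. The pipeline was tested on simulated data. Contrasts set both hairpins' mean, sh4 and sh3 against shNT, and sh4 against sh3.

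Same-numbered arrays deviated together from their group means (correlation across genes 0.22 to 0.30 in the 3 pairs of groups), so the number, given by the sample titles, was taken as a replicate block in a second fit. No label states shared preparation, and the block rests on that inference from these arrays. Members and gene lists were chosen with earlier results of these data known. Named genes are the members, Jmjd1c, up to 4 genes a list with the smallest p, and the 3 nearest profiles of Lin28a, Lin28b and Hmga2. Tut4, Tut7, Dis3l2, Mycn, Nras, Col1a1 and Fn1 were named after their values were seen. So were Gata4, Gata6, Sox7, Foxa2, Afp, Ttr, Lum, Postn, Fstl1, Pdgfra and Sox1. Intervals and SEs are limma's, and SDs are over arrays. Alternatives were the pseudocount, filter, normalization, choice of probe sets, trend, block and leaving out each array; list sums without the most abundant gene were added after seeing the data.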

Additional observations from a re-analysis of the deposited data

How the results depend on the processing

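Of the 7 members, the 1 past the threshold in the knockdown mean became 0 with the mean of all probe sets of a gene, without _s_at and _x_at probe sets and without the intensity trend, and ranged from 0 to 1 over arrays left out. With the replicate block it became 1 of 7 with sh3 and 1 of 7 in sh4 minus sh3, against 0 each without it, and the block changed no other call among the genes. With sh4 it was 1 under all 16 alternatives over genes, while over probe sets the sh4 call of Hmga2 was lost with each array left out. Of the 20 probe sets, the 1 past the threshold in the knockdown mean became 4 with the replicate block, 0 with a pseudocount of 64 and without the intensity trend, and 0 with each array left out. In the knockdown mean 5 of the 7 genes kept a positive sign in all alternatives; Lin28b turned negative in 1 of 15 (it was not tested with a 60th percentile filter) and Trim71 in 4 of 16. The count over all genes in the knockdown mean was 92, and was 36 without the filter, 34 with the mean of probe sets, 59 without _s_at and _x_at probe sets, 0 without the trend (1499 genes with an unadjusted p under 0.05), 710 with the block and 4 to 43 over arrays left out. Median centring moved the median of all genes with sh4 by -0.11; there 60% of 55 calls were higher, against 78.3% of 46 with the deposited scaling, and Hmga2 stayed past the threshold at 1.61 (adjusted p = 0.00602 by limma). Signals near 40.1, as at Lin28b, carry little information on fold change.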

Other observations

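The profiles nearest to Lin28a over the 6 arrays were those of H2-D1, Tyw3 and Bin3 (root mean square difference 0.05, 0.05 and 0.06, against 0.23 for the Lin28a profile about its own mean). Those nearest to Lin28b were Tap1, Lypd6 and Cpox (0.04, 0.07 and 0.07, against 0.54). Tap1, a peptide transporter of antigen presentation, read 277 and 133 in sh4, 320.4 and 241 in sh3, and 247 and 106 in shNT, so replicate 1 exceeded replicate 2 in each group, as it did at Lin28b.

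Replicate 1 exceeded replicate 2 in all 3 groups at 8 of the 20 member probe sets, 5 of them among the 6 of Igf2bp3 and the others of Lin28a, Lin28b and Igf2bp1. Over all 45037 probe sets this held for 19.7%. At Trim71 the knockdown mean within replicate numbers 1 and 2 was 0.23 and -0.21 at 1453599_at and 0.34 and -0.33 at 1456673_at.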
